A study of Rattus norvegicus with 10 samples.

Results

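A set of 10 genes of antioxidant defence was followed in the white adipose tissue of 10 male rats, each 13 weeks of age, with 1 expression array per animal. They are Nqo1, Hmox1, Gclc, Gclm, Txnrd1, Srxn1, Sod2, Sod3, Gpx3 and Cat, and every probe set was taken whose platform annotation gives a single gene symbol from this set. That rule found 14 probe sets for all 10 genes, of 14217 genes and 31042 probe sets tested. The 5 rats of the noodle group (animals 1, 4, 7, 10 and 13) ate a diet with 30% instant noodle by weight and 26% of its energy from fat, including the seasonings. The 5 rats of the control group (animals 2, 5, 8, 11 and 14) are described as fed the same diet without seasonings, and whether it held the noodle is left unsaid by the labels. Feeding was paired, with about 60 g of food daily for each kg of body weight, with 12 hours of light, and the feeding period is given as 30 days in one label and 4 weeks in another. The labels used here state neither strain nor fat depot. The comparison asks whether the seasoned noodle diet went with other transcript levels of this defence system.

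Cells of fat tissue make superoxide and hydrogen peroxide in mitochondria, in peroxisomes and at membrane oxidases. The transcription factor NRF2 (gene Nfe2l2) is held back by KEAP1 and released when reactive compounds modify KEAP1. It then pairs with small MAF proteins on antioxidant response elements and induces genes of quinone reduction, heme breakdown, glutathione synthesis and the thioredoxin system, while BACH1 competes with it, above all at the heme oxygenase gene. The superoxide dismutases, the glutathione peroxidases and catalase remove the oxidants themselves and are controlled only in part by NRF2.

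Promoter sequence was looked at first, since NRF2 acts through a known element. RefSeq windows of 300 bases (build GRCr8, 250 before to 50 after an annotated start) were available for 8 of the 10 genes, in 9 windows, 2 of them for Txnrd1. Hmox1 and Sod3 had no entry. The core of the element, TGACNNNGC, searched on both strands, occurred in 3 of the 9 windows and in 12.1% of all 33469 windows of this length. Followed by an A it occurred in 2 of the 9 and in 3.0% of all windows. The matches are shown because this is the sequence NRF2 is known to bind, and each is printed 5′ to 3′ on the strand that carries the motif, with the motif in capitals.
Gclm, chr2:213031953-213031981, minus strand: tggaagacaaTGACTAAGCagaaaccgca
Txnrd1, chr7:22755964-22755992, plus strand: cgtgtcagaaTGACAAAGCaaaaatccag
Sod2, chr1:50050185-50050213, plus strand: agctaggcgcTGACCCTGCcggcagcgcc
All 3 lie on the strand opposite to the gene and upstream of the start, 163 bases from it for Gclm, 69 for Txnrd1 and 26 for Sod2. The related AP-1 element TGACTCA, which can overlap an antioxidant response element, was found in 4.63% of all windows and in 1 of the 9, that of Srxn1, with 2 matches, here again in capitals.
Srxn1, chr3:161064740-161064766, minus strand: cacagcgtggTGACTCAggccctcaga
Srxn1, chr3:161064797-161064823, minus strand: gtcgggtcgcTGACTCAgggtgagttt
A match is a description of the letters and does not show that a factor binds there, and the windows without one say nothing about more distant elements.

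The deposited values are on a scale taken as log2, and most of them hardly move. A probe set was called flat where its SD over the 10 arrays was 0.01 or less. Over the whole array 8.4% of the probe sets were not flat, and among the antioxidant probe sets 5 of 14 were not (35.7%). These 5 belong to Hmox1, Gclm, Sod2, Sod3 and Gpx3, with SDs from 0.031 for Sod2 to 0.295 for Gpx3. The 9 flat probe sets are all those of Nqo1, Gclc, Txnrd1, Srxn1 and Cat, with SDs from 0.000133 to 0.000887. The values nearest to the limit were the 0.031 of Sod2 above it and the 0.000887 of Nqo1 below it. The median SD of all probe sets that were not flat was 0.191, well above that of Sod2. No source used here says why some genes are flat, so a difference is given on the deposited scale and is not ranked against that of another gene.

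**Figure D1:**
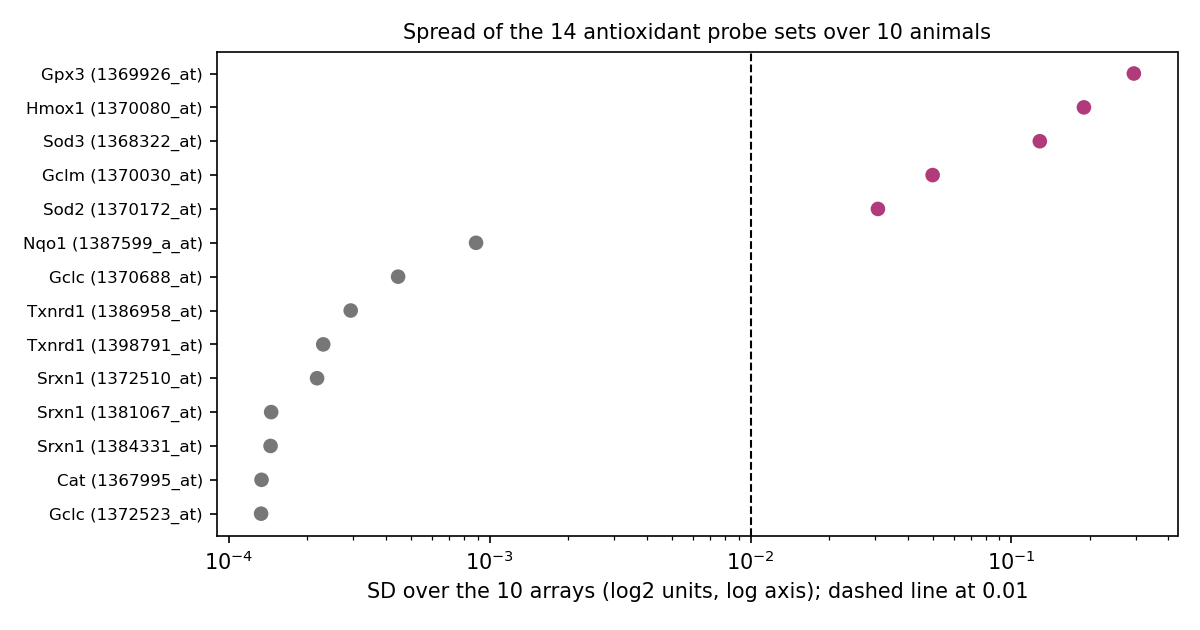
SD over the 10 arrays (log2 units, log axis) of each of the 14 antioxidant probe sets, with the limit of 0.01 as a dashed line. The 5 points to its right are Gpx3, Hmox1, Sod3, Gclm and Sod2, and the 9 to its left are flat.

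No antioxidant probe set differed between the diets past the threshold. As 9 of the 14 were flat, this does not show that Nqo1, Gclc, Txnrd1, Srxn1 and Cat were unchanged. In limma, with Benjamini-Hochberg adjustment over all 31042 probe sets, 0 of the 14 reached an adjusted p of 0.05, against 0.0% of all probe sets, and the lowest adjusted p among the 14 was 0.993. Of the 14, 2 had an unadjusted p under 0.05, Sod2 and 1 flat probe set of Srxn1, against 4.77% of all probe sets. Among probe sets that were not flat it was 1 of 5, against 8.13%. The groups did not separate fully in any of the 14, while they did in 0.718% of all probe sets and 0.959% of those that were not flat. The noodle mean was the higher one in 3 of the 5 and in 44.6% of all probe sets that were not flat. The median difference of the 5 that were not flat was 0.041 log2 units, and that of all 2607 such probe sets was -0.012.

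Hmox1 encodes heme oxygenase, the inducible enzyme that breaks heme down to biliverdin, iron and carbon monoxide. Its level in noodle animals 1, 4, 7, 10 and 13 was 7.53, 7.46, 7.55, 7.21 and 7.39, and in control animals 2, 5, 8, 11 and 14 it was 7.25, 6.99, 7.41, 7.14 and 7.53. The groups overlapped: the highest control, animal 14, lay level with noodle animal 1, and noodle animal 10 lay below 3 of the 5 controls. The difference, noodle minus control, was 0.16 ± 0.11 log2 units (SE, n = 5 per group), or 1.12-fold, with an unadjusted 95% interval from 0.941-fold to 1.33-fold (limma adjusted p = 0.993). It was 0.095 without control animal 5.

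Hmox1 varied across the animals with markers of macrophages, cells that take up and degrade heme. This relation, like those to the other marker means below, was examined only after the values were seen. The mean level of 17 measured macrophage markers lay between 8.01 and 8.38 in the noodle group and between 7.93 and 8.34 in the controls. Of the 14 of these markers that were not flat, 13 had a higher mean in the noodle group, beside 44.5% of all genes that were not flat. The remaining marker, Trem2, had a lower mean. None passed the threshold. The complement gene C1qa differed by 0.36 ± 0.18, the scavenger receptor gene Cd163 by 0.15 ± 0.16, the lysosomal marker Cd68 by 0.17 ± 0.17 and Trem2 by -0.30 ± 0.14. Over the 10 animals Hmox1 and the macrophage mean gave Pearson's r = 0.893 (permutation p = 0.00078, adjusted p = 0.043 over 55 relations) and Spearman's rho = 0.855 (permutation p = 0.0028, adjusted p = 0.153). Without the 2 animals farthest from the median of the marker mean, control animals 5 and 11, r was 0.873. Within the noodle group r was 0.821 and within the controls 0.91, each over 5 animals and given without a test. When 1 animal was left out in turn, r stayed between 0.879 and 0.926, while its adjusted p lay between 0.019 and 0.115.

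Hmox1 also varied with a sign of RNA quality, the level of the 3-prime minus the 5-prime control probe set, averaged over Actb and Gapdh. The measure averaged 0.84 ± 0.07 under the noodle diet and 0.95 ± 0.08 under the control diet (SD, n = 5, two-sided exact permutation p = 0.0476, where 0.0079 is the smallest possible). It passed in the full set of animals and not in 7 of the 10 sets that leave out 1 animal. Across the 10 animals Hmox1 was lower where it was larger (r = -0.826, permutation p = 0.0036, adjusted p = 0.0499; rho = -0.745, adjusted p = 0.194). Without noodle animal 13 and control animal 5, the farthest in this measure, r was -0.863. Within the noodle group r was -0.562 and within the controls -0.905. With the measure as a covariate, the diet difference of Hmox1 turned to -0.041 ± 0.094. The macrophage mean also tended to be lower where this measure was larger. Control animals 2, 5 and 11, highest in the measure (0.96 to 1.06), had macrophage means of 7.93 to 8.09. Noodle animals 1, 7 and 13 and control animal 14, the lowest (0.75 to 0.82), had 8.21 to 8.34. Between them, noodle animals 4 and 10 and control animal 8 had 8.38, 8.01 and 8.19. This relation was not tested, so macrophage content and RNA quality are not separate correlates of Hmox1 here. The part of either in the Hmox1 values was not tested. In whole tissue, fewer cells of a type and less RNA per cell cannot be told apart.

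**Figure D2:**
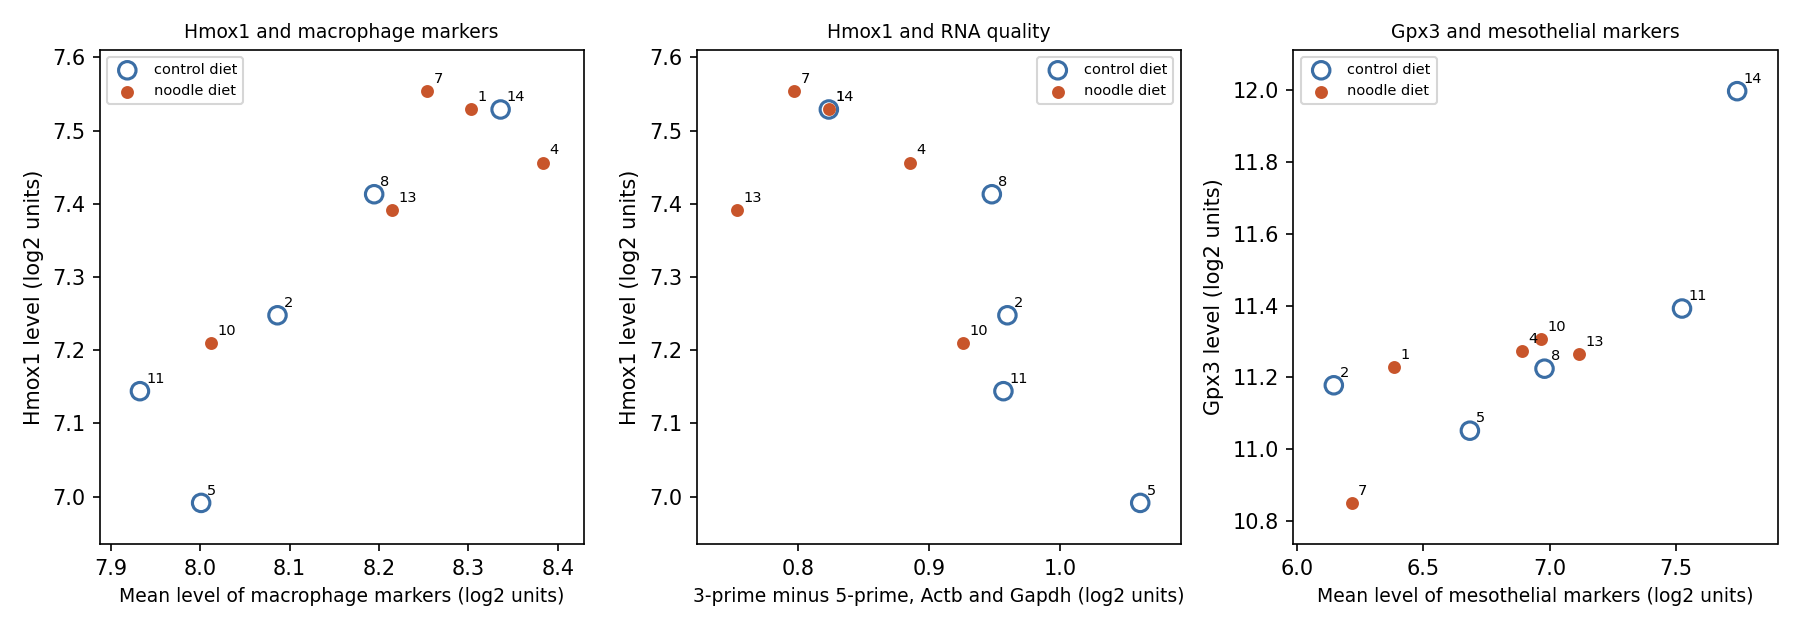
Each point is 1 animal, numbered as in the labels (open blue circles control diet, filled red circles noodle diet); axes are in log2 units. Left, Hmox1 against the mean level of macrophage markers (r = 0.893). Middle, Hmox1 against the 3-prime minus 5-prime difference of Actb and Gapdh (r = -0.826), where noodle animal 1 and control animal 14 coincide. Right, Gpx3 against the mean level of mesothelial markers (r = 0.798), with control animal 14 highest on both axes.

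Nqo1 encodes the quinone reductase that is the standard readout of NRF2 activity in many tissues. Its probe set was flat, at 7.73 to 7.74 in all 10 animals, with a difference of -0.00040 ± 0.00056. Its whole range over the animals was 0.00295 log2 units, the widest of the 9 flat probe sets.

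Glutathione is made by glutamate-cysteine ligase, whose catalytic subunit is Gclc and whose modifier subunit is Gclm. Gclm stood at 8.01, 8.02, 8.09, 8.07 and 8.08 in noodle animals 1, 4, 7, 10 and 13 and at 8.05, 8.17, 8.06, 8.04 and 8.13 in control animals 2, 5, 8, 11 and 14. Noodle animals 1 and 4 lay below every control and control animals 5 and 14 above every noodle rat, and the rest overlapped. The difference was -0.035 ± 0.030, or 1.02-fold higher in the controls, with an interval from -0.10 to 0.03 log2 units (limma adjusted p = 0.993). It was -0.014 without control animal 5, -0.023 without noodle animal 1 and -0.0088 in a fit that weights each array by how well it follows its group. The catalytic subunit could not be set beside it, as both Gclc probe sets were flat, at 6.86 and 6.43, with differences of 2.5e-05 ± 8.7e-05 and 0.00027 ± 0.00027. Gclm is the gene of the group with both such an element followed by an A in its window and a probe set that was not flat.

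Txnrd1, the cytosolic thioredoxin reductase, and Srxn1, which restores peroxiredoxins that have been oxidized too far, had flat probe sets only. The 2 probe sets of Txnrd1 stood at 8.07 and 6.95, with differences of -0.00018 ± 0.00014 and 1.2e-05 ± 0.00019. The 3 probe sets of Srxn1 stood at 6.86, 6.11 and 5.38. The probe set at 6.86 had an unadjusted p of 0.015 for a difference of -0.00030 ± 0.00010 (limma adjusted p = 0.993). The 2 others differed by 0.00011 ± 0.00009 and 0.000065 ± 0.000093. Centring the arrays on their medians turned the difference of the first to 0.0014, since array medians themselves ranged from 6.17 to 6.18, a wider span than that of any flat member.

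Sod2, the manganese superoxide dismutase of the mitochondrial matrix, had the smallest p among the 5 genes that were not flat. It stood at 9.18, 9.14, 9.20, 9.17 and 9.21 in noodle animals 1, 4, 7, 10 and 13 and at 9.12, 9.17, 9.14, 9.13 and 9.13 in control animals 2, 5, 8, 11 and 14. Of the 5 noodle rats, 4 lay above every control and noodle animal 4 lay within the control range. The difference was 0.041 ± 0.014, or 1.03-fold, with an unadjusted 95% interval from 1.01-fold to 1.05-fold. In limma the unadjusted p was 0.0195 and the adjusted p 0.993. It kept its sign and an unadjusted p under 0.05 in all 10 sets that leave out 1 animal, from 0.033 without noodle animal 13 to 0.052 without noodle animal 4. The unadjusted p was 0.102 with the 3-prime to 5-prime covariate and 0.309 where limma was run on probe sets that were not flat only, where the SE was 0.038.

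Sod3, the dismutase secreted into the extracellular space, stood at 11.19, 11.08, 11.18, 11.27 and 11.21 in noodle animals 1, 4, 7, 10 and 13 and at 10.83, 11.27, 11.18, 11.19 and 11.17 in control animals 2, 5, 8, 11 and 14. Control animal 2 stood apart below all others. The difference was 0.06 ± 0.08 (limma adjusted p = 0.993), with an interval from -0.13 to 0.24, and it turned to -0.016 without control animal 2. It was 0.038 without noodle animal 10, 0.096 without control animal 5 and 0.113 with array weights. Noodle animal 4 and control animal 2, the lowest animals in Sod3, were the highest in the mean of 9 smooth muscle and pericyte markers, at 7.90 and 7.97 against 7.68 to 7.83 in the other 8. Over the 10 animals the relation gave r = -0.869 (permutation p = 0.0035, adjusted p = 0.0499) and rho = -0.552 (adjusted p = 0.362), and without these 2 animals r was -0.211, so it rests on them. With the adipocyte mean Sod3 gave r = 0.66 (permutation p = 0.0057, adjusted p = 0.062) and rho = 0.576 (adjusted p = 0.362).

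Gpx3, the secreted, selenium-containing glutathione peroxidase of plasma, varied most of the 5. It stood at 11.23, 11.27, 10.85, 11.31 and 11.26 in noodle animals 1, 4, 7, 10 and 13 and at 11.18, 11.05, 11.22, 11.39 and 12.00 in control animals 2, 5, 8, 11 and 14. Noodle animal 7 was the lowest and control animal 14 the highest of all, and the other 8 lay within 11.05 to 11.39 with the groups mixed. The difference was -0.18 ± 0.18, or 1.14-fold higher in the controls, with an interval from -0.60 to 0.23 (limma adjusted p = 0.993). It was -0.027 without control animal 14, -0.101 without noodle animal 7, -0.110 with array weights and -0.41 ± 0.21 with the 3-prime to 5-prime covariate.

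Gpx3 varied across the animals with the markers of mesothelium, the cell layer that covers visceral fat. The mean of 9 measured mesothelial markers lay between 6.22 and 7.12 in the noodle group and between 6.15 and 7.74 in the controls. All 9 had a lower mean in the noodle group, beside 905 of all 1632 genes that were not flat. Among the 9 were Krt8 at -0.54 ± 0.17 and Msln at -0.34 ± 0.62. None passed the threshold. Over the 10 animals r was 0.798 (permutation p = 0.0016, adjusted p = 0.043) and rho 0.794 (permutation p = 0.0087, adjusted p = 0.194). Without control animals 2 and 14 r was 0.804, within the noodle group 0.778 and within the controls 0.778. The relation did not pass the threshold in every set that leaves out 1 animal. Gpx3 also varied with the mast cell mean (r = 0.724, permutation p = 0.0128, adjusted p = 0.101). The part of mesothelial content in the Gpx3 values was not tested.

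Cat, the peroxisomal catalase, was flat at 11.44 in every animal, with a difference of 2.4e-06 ± 8.8e-05.

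**Figure D3:**
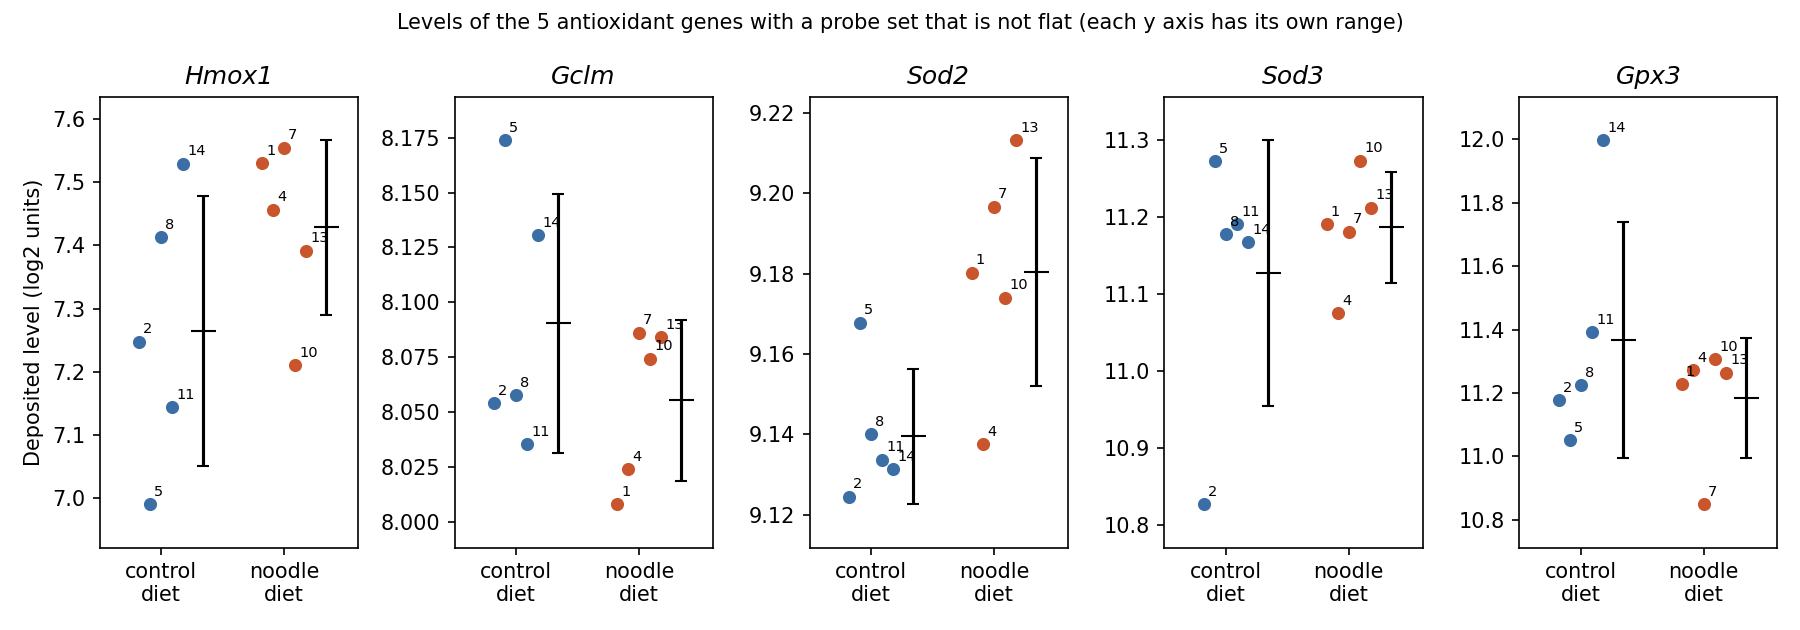
Deposited level (log2 units) of the 5 antioxidant genes that were not flat, 1 point per animal with its number, by diet; the bar is the mean ± SD of 5 animals, and each panel has its own axis range. The groups overlap in all 5 panels, with 4 of 5 noodle rats above every control for Sod2.

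No pair of the members passed a test of correlation. Among the 10 pairs of the 5 genes that were not flat, 0 had an unadjusted permutation p under 0.05 by Pearson's or by Spearman's correlation. The pair with the smallest p was Sod2 and Sod3 (r = 0.533, permutation p = 0.092, adjusted p = 0.794; rho = 0.612, adjusted p = 0.676), with r = 0.651 without noodle animals 7 and 13. Hmox1 and Gclm, which share control by NRF2, gave r = -0.364 (permutation p = 0.302, adjusted p = 0.794) and rho = -0.152 (adjusted p = 0.856). Without control animals 5 and 11 that r was 0.048. Control animal 5 held the lowest Hmox1 and the highest Gclm of all 10 animals.

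Of the 55 relations between the 5 genes and 10 cell type marker means or RNA quality, 11 had an unadjusted p under 0.05 and 4 passed after adjustment, those of Hmox1 with the macrophage mean and RNA quality, Gpx3 with the mesothelial mean and Sod3 with the smooth muscle mean. By Spearman's correlation 0 passed after adjustment. The relations to marker means were added after the values were seen, so their p-values describe these data and are not tests set in advance. Leaving out noodle animal 1, 7 or 10, or control animal 2, 11 or 14, brought the count from 4 to 0, leaving out noodle animal 4 brought it to 1, and leaving out control animal 5 to 2. The others of the 11 were Hmox1 (r = -0.698) and Gclm (0.788) with the brain mean and Gclm with the adipocyte mean (0.655). Also among them were Sod2 (-0.703) and Gpx3 (0.724) with the mast cell mean, and Sod3 with the adipocyte (0.66) and endothelial (-0.627) means. Of the measured markers, 0 of 8 for lymphocytes and 1 of 13 for brain were not flat. These 2 means are not read as cell content. In other lists, 8 of 15 adipocyte, 4 of 8 mast cell and 5 of 9 smooth muscle and pericyte markers were not flat. Adipoq, Plin1, Lpl and Fabp4 were among the flat ones, so these means also reflect only part of their lists.

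For each of the 5 genes, the gene with the most similar course over the 10 animals was taken from 1631 others that were not flat. It was the platelet chemokine gene Pf4 for Hmox1 (r = 0.923), the cobalamin transporter gene Abcd4 for Gclm (0.955), the complement regulator gene C4bpa for Sod2 (0.899), Adhfe1 for Sod3 (0.916) and the growth factor gene Fgf9 for Gpx3 (0.955). These are the highest of many values and are given as a description.

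The wider antioxidant network was read from 6 lists holding 110 further genes, of which 101 were measured and 33 were not flat. None of the 101 passed the threshold (0 of 14217 genes, 0.0%, passed in all). An unadjusted p under 0.05 was found for 5 of the 101, against 4.48% of all genes, and 2 of the 33 that were not flat, against 7.66%. Of those 33, 13 had a higher mean in the noodle group and 20 a lower one, beside 44.5% with a higher one among all genes that were not flat. Their median was -0.023, beside -0.012 for all 1632 genes that were not flat.

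The controllers of the pathway were flat. Nfe2l2, which encodes NRF2 itself, Keap1 and Bach1 stood at 8.61, 7.37 and 5.84, and their differences were under 0.001 in size. Of the 10 controllers 1 was not flat, the small MAF gene Maff, which differed by -0.09 ± 0.07. It was -0.046 without control animal 14, -0.133 without control animal 5 (limma unadjusted p = 0.043, adjusted p = 0.975) and -0.204 with the 3-prime to 5-prime covariate (limma unadjusted p = 0.010, adjusted p = 0.735).

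Among other NRF2 targets, 22 were measured and 9 were not flat, 6 of them with a higher and 3 with a lower noodle mean. Gstp1, a glutathione transferase, differed by 0.11 ± 0.04 (limma unadjusted p = 0.031, adjusted p = 0.993). The controls stood at 9.84 to 10.04 and the highest noodle rat at 10.12, with 3 of 5 noodle rats above every control. Leaving out 1 animal gave Gstp1 values from 0.081 to 0.131. Its limma unadjusted p was under 0.05 in 5 of these 10 sets (highest 0.070) and in 6 of 8 other alternatives (highest 0.141). Tkt, the transketolase of the pentose phosphate pathway, differed by 0.10 ± 0.16, the glutathione transferase Gstm1 by -0.05 ± 0.11 and the epoxide hydrolase Ephx1 by -0.07 ± 0.07. Gstm1 turned to 0.047 without control animal 14, and it was -0.291 with the 3-prime to 5-prime covariate (limma unadjusted p = 0.0026, adjusted p = 0.735) and -0.019 with array weights. Leaving out 1 animal gave Tkt values from 0.026 without noodle animal 1 to 0.194 without control animal 5. For Ephx1 such values ran from -0.115 without noodle animal 1 to -0.027 without control animal 14, and the covariate gave -0.158.

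In the glutathione system 7 of 26 genes were not flat, 2 with a higher and 5 with a lower noodle mean. Gstz1 differed by 0.11 ± 0.07, Glrx2, a mitochondrial glutaredoxin, by 0.02 ± 0.06, the membrane-bound transferase Mgst2 by -0.12 ± 0.14 and Gpx8 by -0.004 ± 0.010. Gstz1 was 0.060 without control animal 2 and 0.172 with the 3-prime to 5-prime covariate. Mgst2 shrank to -0.0051 once control animal 5 was left out and to -0.059 without noodle animal 7, and it reached -0.185 when control animal 11 was dropped. Array weights gave it -0.075, and the covariate turned it to 0.026. Glrx2 and Gpx8 changed sign with the animal left out. In the thioredoxin and peroxiredoxin system 5 of 17 were not flat, 1 higher and 4 lower. Txnip, which binds and inhibits thioredoxin, differed by -0.23 ± 0.14, Prdx2 by -0.12 ± 0.09 and the mitochondrial peroxiredoxin Prdx3 by 0.03 ± 0.09. Txnip was -0.122 without noodle animal 13 and -0.084 with the covariate. Prdx2 was -0.060 without control animal 14 and with array weights, -0.194 without control animal 11 (limma unadjusted p = 0.026, adjusted p = 0.957) and -0.221 with the covariate. Prdx3 changed sign with the animal left out.

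In the list of superoxide and heme genes 6 of 15 were not flat, 2 higher and 4 lower. Fech, which inserts iron in the last step of heme synthesis, differed by -0.30 ± 0.12 (limma unadjusted p = 0.037, adjusted p = 0.993), at 8.12 to 8.44 in the noodle group and 8.27 to 8.85 in the controls. Leaving out 1 animal gave Fech values from -0.390 to -0.247. Its limma unadjusted p was under 0.05 in 5 of these 10 sets (highest 0.084) and in 6 of 8 other alternatives (highest 0.086). Pon3 differed by -0.24 ± 0.18, Alas1, the first enzyme of heme synthesis, by 0.04 ± 0.03 and Selenow by 0.03 ± 0.10. Pon3 came to -0.111 when control animal 14 was left out, to -0.127 without noodle animal 7 and to -0.401 with the covariate. Alas1 was 0.016 without noodle animal 13 and 0.024 with the covariate, and Selenow changed sign with the animal left out. Beside Fech, the mean of 5 measured red blood cell markers was 7.88 to 8.14 in the noodle group and 8.02 to 8.35 in the controls, and their part in the Fech values was not tested.

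Among sources of reactive oxygen 5 of 11 were not flat, 2 higher and 3 lower. The higher ones were both subunits of the phagocyte NADPH oxidase, Cyba at 0.19 ± 0.13 (0.082 without control animal 5) and Cybb at 0.15 ± 0.11 (0.097 without control animal 11, 0.224 without noodle animal 10). Xdh, the xanthine oxidoreductase, differed by -0.04 ± 0.12 and the monoamine oxidase Maoa by -0.05 ± 0.09, and both changed sign with the animal left out. With the 3-prime to 5-prime covariate Cyba was at -0.012 and Cybb at -0.006. The macrophage markers given beside Hmox1 also lay higher in the noodle group, and their part in the values of these 2 subunits was not tested.

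**Figure D4:**
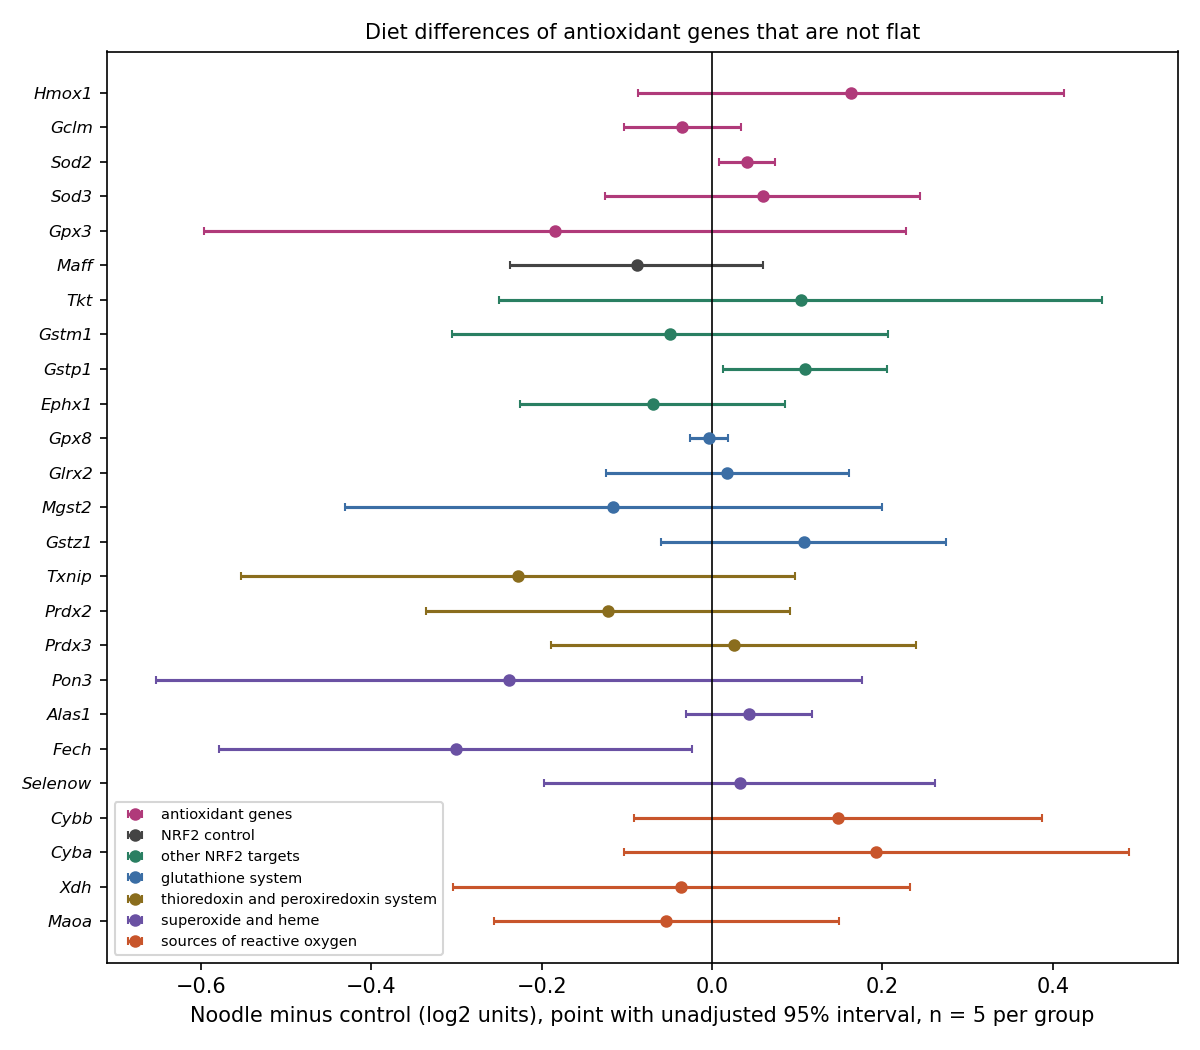
Difference between the diets, noodle minus control (log2 units), for the 5 antioxidant genes that were not flat and 20 genes of the 6 wider lists, with unadjusted 95% intervals (n = 5 per group); colours give the list. The intervals of Sod2, Gstp1 and Fech leave out 0 and the other 22 hold it, and none passed the threshold after adjustment.

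The extraction text of the labels speaks of brain, and all other labels of fat. The median level was 11.8 for 15 adipocyte markers and 5.70, below the array medians, for 13 brain markers. The only brain marker that was not flat, Mbp, stood above the array medians, at 8.76. Correlations between arrays lay between 0.993 and 0.998.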

How the data were processed

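The authors' deposited table holds 1 log2 value per probe set and array. The base was read from the range of the values, and no source used here names the background correction, summarisation or normalization. Per the labels' protocols, biotin-labelled cRNA was made from 100 ng of total RNA. Of 31099 probe sets, 57 array controls were left out. Of the 31042 tested, 20826 had 1 gene symbol, 436 several and 9780 none, and 20758 were matched to the RefSeq gene table, with 0 symbols changed. The 2607 probe sets with an SD above 0.01 are those called not flat.

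Diets were compared with limma 3.58.1 in R 4.3.3 (lmFit, eBayes, two-sided, Benjamini-Hochberg over all probe sets, threshold 0.05), with no pairing. The 5 arrays per group limit the precision, and p-values measure the spread between these samples, taken as 1 rat each. In 10 simulations over 31042 probe sets, normal noise was drawn independently for each probe set. Changes were placed at once in 200 probe sets, all of them not flat. There 33.7% of changes of 0.5 log2 units and 74.2% of changes of 1 were found, and 7.14% of calls were false. These shares do not apply to flat probe sets or to a gene that changes alone. A gene of the wider lists or marker lists was read from its probe set with the highest mean. Correlations used 100000 permutations (two-sided, scipy 1.17.1). The rule for named genes took Nfe2l2, Keap1, Bach1 and, from each list, up to 2 genes per direction with the smallest p among those not flat. Members and lists were chosen with earlier results of these data known, and the relations to marker means, Fech's red cell values and the pairs of probe sets of one gene were added after the values were seen. Alternatives were 2 scalings, 2 filters on dim probe sets, an intensity trend, array weights, an RNA quality covariate, probe sets that were not flat only, averaging the probe sets of each gene, and leaving out each animal.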

Additional observations from a re-analysis of the deposited data

Results flagged for a closer look

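In 72 groups of 5 animals examined (36 measures), 8 held an animal well apart from its 4 group mates; about 1 in 20, or 3.6, would do so by chance. Among the antioxidant genes, Sod3 stood at 10.83 in control animal 2 against 11.17 to 11.27 in the other controls, and Gpx3 at 10.85 in noodle animal 7 against 11.23 to 11.31 in the other noodle rats. Noodle animal 7 was also low in Pon3, at 6.98 against 7.51 to 7.57. Cyba stood at 7.39 in control animal 5 against 7.87 to 8.04. Noodle animal 4 stood at 8.56 in Gstz1 against 8.69 to 8.73, at 7.88 in the mean of red blood cell markers against 8.07 to 8.14, at 7.90 in that of smooth muscle and pericyte markers against 7.72 to 7.75, and at 6.87 in that of mast cell markers against 6.63 to 6.70.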

How the results depend on the processing

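The number of antioxidant probe sets and of wider antioxidant genes past the threshold was 0 under every alternative run, and the number of correlated pairs of the 5 genes was 0 likewise. Over all probe sets the number was 0 except without control animal 14, where it was 1 (0 to 1 over the sets without 1 animal). No paired analysis was possible because no number occurs in both groups and the labels, which speak of paired feeding, do not say which rats were paired; animals with neighbouring numbers were not taken as pairs. With the 3-prime to 5-prime covariate the difference of Hmox1 turned to -0.041, Mgst2 to 0.026, Selenow to -0.158, Cybb to -0.0064 and Cyba to -0.012. Array weights turned Xdh to 0.015. Quantile normalization and centring turned the difference of the flat Srxn1 probe set at 6.86 to 0.0020 and 0.0014. Sets without 1 animal gave ranges that cross 0 for Sod3 (-0.0155 to 0.0958), Glrx2 (-0.0121 to 0.0541), Prdx3 (-0.0277 to 0.0864), Selenow (-0.0044 to 0.122), Gstm1 (-0.0934 to 0.0474), Gpx8 (-0.0096 to 0.0018), Maoa (-0.106 to 0.012) and Xdh (-0.106 to 0.064). They kept the sign of Hmox1 (0.0948 to 0.229), Gclm (-0.0488 to -0.0141), Sod2 (0.0327 to 0.0516) and Gpx3 (-0.264 to -0.027). The 3-prime to 5-prime difference lay between -0.144 and -0.0848. The number of relations to marker means past the threshold was 2 with centring and 7 with quantile normalization, against 4. The causes were not tested.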

Other observations

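Flat probe sets still held some order. The 2 flat probe sets of Txnrd1 rose and fell together over the 10 animals (r = 0.788, permutation p = 0.0064, adjusted p = 0.028 over 5 pairs; rho = 0.818, adjusted p = 0.031), and r was 0.715 without the 2 farthest animals. Those of Gclc gave r = 0.756 (permutation p = 0.0113, adjusted p = 0.028; rho = 0.758, adjusted p = 0.0375) and 0.425 without the 2 farthest. The 3 pairs of Srxn1 gave r from -0.257 to 0.011 (adjusted p from 0.795 to 0.976). The count of 2 pairs was 0 without noodle animal 1 or control animal 5 or 8, 1 without noodle animal 13 or control animal 14, and 5 when arrays were centred on their medians, which adds one shift to all values of an array. Over the array, 8124 pairs of flat probe sets of one gene had a median r of 0.204 and a mean of 0.182, while the mean over all pairs of flat probe sets was 0.0025. Whether probe sets of one gene share bases was not examined.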
